A study of Arabidopsis thaliana with 208 samples.

Results

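The 46 nuclear genes described here encode proteins of the photosynthetic apparatus, and their transcripts were followed in roots of Arabidopsis thaliana. They were taken by locus from a named list: 4 LHCA genes and 10 LHCB genes of light harvesting, 12 PSA genes of photosystem I, 8 PSB genes of photosystem II, 4 genes of electron transport (PETC, PETE1, PETE2 and FD2) and 8 genes of the Calvin cycle (RBCS1A, RBCS1B, RBCS2B, RBCS3B, RCA, GAPA, GAPB and PRK). All 46 were among the 33602 loci of the count files, 33323 of them nuclear. The plants were 12 T-DNA insertion lines and the line Col. The insertion lines were SALK_146141, SALK_100002, SALK_070847C, SALK_012253, SALK_094437C, SALK_085964C, SALK_035980 and SALK_015182, together with SAIL_1207_H04, GABI_868_E02, GABI_513E07 and GABI_699B09. The labels name the lines and not the genes that the insertions disrupt. Every line was grown for 9 days on medium with 10 mM or 1 mM KNO3, with 1% sucrose in both media. KCl was the same in both, so potassium changed together with nitrate. There were 4 biological replicates in each of the 26 groups, each from seedlings of 2 plates combined, which gave 52 libraries at each concentration.

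The chloroplast is built from proteins encoded in its own genome and in the nucleus. Its own genome encodes the cores of the photosystems and the large subunit of Rubisco, while the nucleus encodes the antenna proteins that bind chlorophyll (LHCA around photosystem I, LHCB around photosystem II), many smaller subunits, the small subunit of Rubisco (RBCS) and most Calvin cycle enzymes. In leaves these nuclear genes are among the most highly expressed and they respond together to light. Root cells hold mostly colourless plastids that are known for nitrite reduction and ammonium assimilation, and GOLDEN2-LIKE factors (GLK1 and GLK2) are known activators of the photosynthesis genes, with GLK2 known to act in roots.

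Transcripts were counted by tags read near their 3′ ends. Levels are CPM, tag counts divided by the total of the library and brought to a common scale, with the TMM factors of edgeR to correct for differences in RNA composition between libraries. They were not divided by transcript length, so a level ranks a gene by its share of tags and not by its number of transcripts. A library held between 3981966 and 13695037 nuclear counts, with a median of 8330750. A gene is said to be called, or to have risen or fallen, where the adjusted p of edgeR's quasi-likelihood test was under 0.05 after Benjamini-Hochberg adjustment over all 19664 genes tested. Of the 46 photosynthesis genes, 41 had enough counts for the test, and LHCB2.2, PETE1, RBCS1B, RBCS2B and PRK did not. Titles also give a strip number, 13 in all, of which 3 strips hold libraries of both KNO3 concentrations. The file names of 2 libraries at 10 mM, replicate 3 of SALK_035980 and replicate 3 of SALK_085964C, carry the line of the other, and the labels were followed.

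Upstream sequences are shown for 4 of the genes, chosen by level, motif content or change. They are the 250 bases before the annotated transcript start in RefSeq's annotation of TAIR10.1, read 5′ to 3′ in the direction of transcription. Capitals mark motifs known from promoters of photosynthesis genes and searched on both strands: the G-box CACGTG, the I-box GATAAG and the CCAATC element, which has been described at genes that GLK factors activate. Capitals are also given to the I-box and the CCAATC element where they lie on the opposite strand, so that the CCAATC element then appears as GATTGG. LHCA4 (AT3G47470, chr3:17495034-17495283, minus strand) and LHCB4.1 (AT5G01530, chr5:208616-208865, plus strand) had the highest levels of their antenna families, PSBQ2 (AT4G05180, chr4:2673244-2673493, minus strand) held all 3 motifs, and PSBR (AT1G79040, chr1:29735702-29735951, plus strand) fell most in the line GABI_699B09 and held none.
LHCA4: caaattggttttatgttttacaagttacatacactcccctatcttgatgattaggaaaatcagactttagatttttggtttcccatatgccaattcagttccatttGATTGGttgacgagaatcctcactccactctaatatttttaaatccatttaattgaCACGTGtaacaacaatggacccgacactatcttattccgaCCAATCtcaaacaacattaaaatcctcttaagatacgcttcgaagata
LHCB4.1: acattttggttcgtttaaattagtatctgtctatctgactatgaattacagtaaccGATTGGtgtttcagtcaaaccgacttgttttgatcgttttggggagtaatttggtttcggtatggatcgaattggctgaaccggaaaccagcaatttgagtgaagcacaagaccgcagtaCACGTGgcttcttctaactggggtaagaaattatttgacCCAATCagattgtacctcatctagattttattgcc
PSBQ2: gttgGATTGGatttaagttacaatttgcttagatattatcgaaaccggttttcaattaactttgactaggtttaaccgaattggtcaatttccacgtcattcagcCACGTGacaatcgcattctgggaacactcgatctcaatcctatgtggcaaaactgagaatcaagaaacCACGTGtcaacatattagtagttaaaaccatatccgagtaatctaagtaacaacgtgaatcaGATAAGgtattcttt
PSBR: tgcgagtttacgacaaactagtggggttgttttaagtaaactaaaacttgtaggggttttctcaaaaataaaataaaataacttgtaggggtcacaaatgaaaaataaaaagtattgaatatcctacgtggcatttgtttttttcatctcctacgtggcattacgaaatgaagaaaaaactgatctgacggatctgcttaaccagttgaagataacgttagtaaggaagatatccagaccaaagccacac

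In LHCA4 the G-box began at -88 and the CCAATC elements at -144 and -48 from the transcript start. In LHCB4.1 the G-box began at -74 and the CCAATC elements at -194 and -35. Over all 46 genes a G-box was present in 9 (19.6%), against 6.49% of the upstream windows of 27443 protein-coding genes. An I-box was present in 13 (28.3%), against 12.3% of all windows. The CCAATC element was present in 12 (26.1%), against 10.2%. These shares describe letters in a window and were not tested.

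With 10 mM KNO3 the photosynthesis genes were higher than with 1 mM. All 41 genes tested rose in the comparison of 10 mM with 1 mM over all lines, where 34.1% of all genes were called higher and 30.4% were called lower. The median log2 change of the 41 was 1.04, against 0.02 over all genes, and 23 rose at least 2-fold. The changes lay between 0.58 for LHCB6 and 1.64 for LHCB1.3, and each of the 6 groups of genes had a median between 0.93 and 1.33. For 36 of the 41 the mean level was higher at 10 mM in each of the 13 lines. The shares of all genes that did so, or that rose at least 2-fold, were not counted. In bulk roots, fewer cells that carry such transcripts and less of them per cell cannot be told apart.

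The summed level of the 46 genes gave the same picture library by library. At 10 mM it was 375 CPM in the lowest library, 738 CPM in the median and 1175 CPM in the highest of 52, against 196, 402 and 644 CPM in the 52 libraries at 1 mM. The mean at 10 mM was 1.90 times the mean at 1 mM. Within a line the 4 libraries at 10 mM all exceeded the 4 at 1 mM, and this held in 13 of 13 lines, with ratios of means between 1.5 in SALK_012253 and 2.2 in SAIL_1207_H04. In the 3 strips that hold both concentrations, the summed levels at 10 mM and 1 mM were 555 to 817 CPM against 429 to 565 CPM in strip 4, 695 to 893 CPM against 396 to 439 CPM in strip 7, and 710 to 755 CPM against 324 to 420 CPM in strip 10. In strips 7 and 10 they did not overlap, and in strip 4 they overlapped slightly. Within each of these strips no line is at both concentrations, so these sums compare different lines as well as concentrations.

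**Figure D1:**
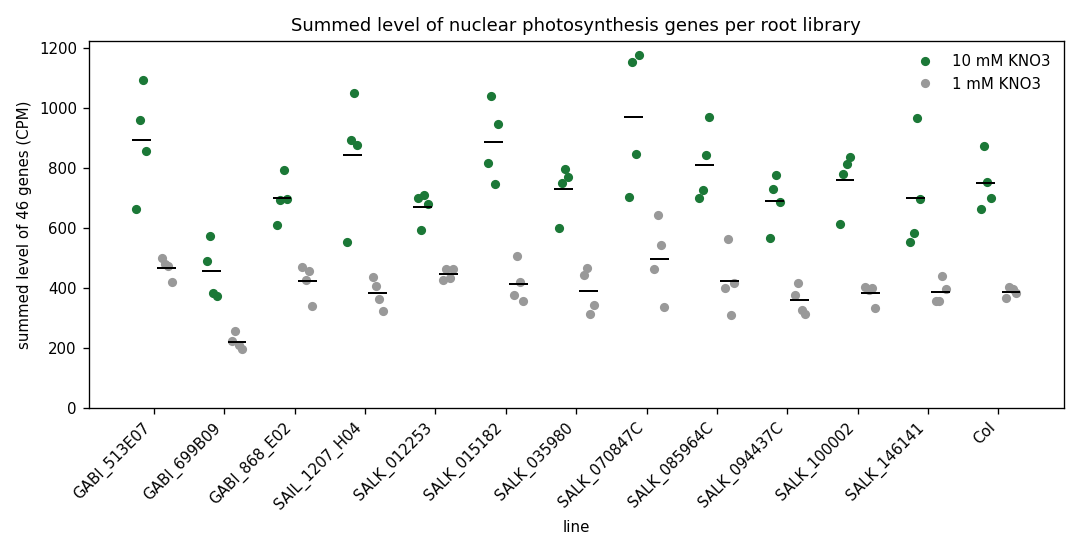
Summed level of the 46 genes in CPM (vertical axis) for each library of the 12 insertion lines and Col (horizontal axis), with 10 mM KNO3 in green and 1 mM in grey, 4 libraries each, and a black bar at the mean. In each line the green points lie above the grey ones, and both groups of GABI_699B09 lie low, at 375 to 573 CPM and 196 to 258 CPM.

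Among the LHCA genes, which encode the antenna of photosystem I, all 4 rose with a median log2 change of 1.12. LHCA3 was between 3.03 and 21.6 CPM at 10 mM (median 11.4), against 0.901 to 8.07 CPM at 1 mM (median 4.46). Its log2 change was 1.47 ± 0.09 (SE, adjusted p = 7.13e-28). LHCA4, with the highest level of the family, was between 54.3 and 198 CPM at 10 mM (median 131), against 21.6 to 102 CPM at 1 mM (median 57.3), a log2 change of 1.18 ± 0.05 (adjusted p = 1.13e-37). The ranges overlapped across lines for both genes, yet within each line neither gene had a library at 10 mM as low as any at 1 mM. LHCA1 rose by 1.04 ± 0.07 and LHCA2, a gene of low level with means of 1.92 and 0.896 CPM at 10 mM and 1 mM, by 1.05 ± 0.12 on the log2 scale.

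The LHCB genes encode the antenna of photosystem II: LHCB1, LHCB2 and LHCB3 form the mobile and bound trimers, and LHCB4, LHCB5 and LHCB6 are the single minor proteins between trimers and core. All 9 tested rose, with a median of 1.04. The largest log2 change of the set was that of LHCB1.3, which was between 0.714 and 13 CPM at 10 mM (median 2.85), against 0.114 to 5.06 CPM at 1 mM (median 1.07), a change of 1.64 ± 0.18 (adjusted p = 1.31e-13). LHCB1.2 was between 0 and 9.01 CPM at 10 mM (median 0.599), against 0 to 2.24 CPM at 1 mM (median 0.188), a change of 1.54 ± 0.33 (adjusted p = 2.79e-05), and it was not called in the strips with both concentrations. Both were near 0 in some libraries and well above the rest in a few. LHCB4.1, whose level was the highest of the family, was far more even, between 11.2 and 29.2 CPM at 10 mM (median 21.3), against 5.22 to 16.1 CPM at 1 mM (median 10.6), a change of 1.04 ± 0.05 (adjusted p = 1.97e-33). It was called in 13 of 13 lines taken one at a time, against 5 for LHCB1.3 and 3 for LHCB1.2. LHCB6 rose least, with means of 13.9 and 9.32 CPM at 10 mM and 1 mM and a change of 0.58 ± 0.08.

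Of the genes for nuclear subunits of photosystem I, all 12 rose, with a median log2 change of 0.99. PSAG, which helps to bind the antenna to the core, was between 1.47 and 17.4 CPM at 10 mM (median 5.53), against 0.315 to 6.82 CPM at 1 mM (median 2.14), a change of 1.45 ± 0.13 (adjusted p = 6.03e-18). PSAO, which takes part in moving light energy between the photosystems, was between 7.05 and 36.7 CPM at 10 mM (median 19.7), against 3.20 to 15.8 CPM at 1 mM (median 8.09), a change of 1.28 ± 0.08 (adjusted p = 9.39e-28). PSAF, which docks the electron donor plastocyanin and had the highest level of these genes, was between 18.8 and 81.8 CPM at 10 mM (median 42.4), against 9.72 to 37.9 CPM at 1 mM (median 25.0), a change of 0.89 ± 0.07 (adjusted p = 7.32e-20). PSAO was called in 13 lines, PSAF in 11 and PSAG in 9. Pairs of copies changed by similar amounts: PSAD1 by 0.91 ± 0.09 and PSAD2 by 0.70 ± 0.10, PSAE1 by 0.77 ± 0.15 and PSAE2 by 0.86 ± 0.10, and PSAH1 by 1.14 ± 0.14 and PSAH2 by 0.97 ± 0.16. The differences within pairs were not tested.

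All 8 genes for subunits of photosystem II rose, with a median of 0.93. PSBW, a small membrane subunit known for holding the supercomplexes together, was between 4.40 and 25.4 CPM at 10 mM (median 9.63), against 1.43 to 11.5 CPM at 1 mM (median 4.18), a change of 1.19 ± 0.09 (adjusted p = 1.77e-21). PSBQ2, a protein of the oxygen-evolving complex, was between 1.22 and 8.34 CPM at 10 mM (median 2.97), against 0.370 to 2.96 CPM at 1 mM (median 1.46), a change of 1.05 ± 0.13 (adjusted p = 3.74e-12). PSBR, which helps to attach that complex, had the highest level of all 46 genes, between 46.2 and 246 CPM at 10 mM (median 149), against 32.5 to 133 CPM at 1 mM (median 93.8), and one of the smaller changes, 0.68 ± 0.05 (adjusted p = 7.59e-23). The extrinsic proteins PSBO1 and PSBP1 rose by 0.75 ± 0.05 and 0.89 ± 0.06. PSBO2, the second PSBO gene, had a change of 1.04 ± 0.15, which was -0.022 (adjusted p = 0.972) once strip was added to the model.

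The carriers of electrons were all higher at 10 mM. PETE2, the main plastocyanin gene, was between 4.82 and 29.0 CPM at 10 mM (median 14.0), against 2.02 to 13.4 CPM at 1 mM (median 5.44), a change of 1.38 ± 0.09 (adjusted p = 1.12e-24). PETC, the Rieske protein of the cytochrome b6f complex, was between 5.34 and 17.5 CPM at 10 mM (median 9.89), against 2.3 to 7.03 CPM at 1 mM (median 4.16), a change of 1.33 ± 0.06 (adjusted p = 3.46e-35). FD2, the leaf type of ferredoxin, stood between 57.3 and 123 CPM at 10 mM (median 83.5), against 36.0 to 84.0 CPM at 1 mM (median 56.4), with a change of 0.61 ± 0.04 (adjusted p = 1.55e-23). FD2 thus had the smallest change of the 3 and the smallest relative spread of all 46 genes, with a median coefficient of variation of 13.2% within groups. That coefficient includes counting error, which is larger at low levels. PETE1, the second plastocyanin gene and not tested, had means of 0.592 and 0.397 CPM at 10 mM and 1 mM.

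In the Calvin cycle the 5 genes tested rose, with a median of 0.98. RBCS1A, the main gene for the small subunit of Rubisco, was between 8.05 and 43.0 CPM at 10 mM (median 22.7), against 3.85 to 19.7 CPM at 1 mM (median 7.79), a change of 1.47 ± 0.08 (adjusted p = 2.65e-29). RBCS3B, a copy from the cluster on chromosome 5, was between 0 and 9.01 CPM at 10 mM (median 0.327), against 0 to 2.12 CPM at 1 mM (median 0.221), a change of 1.07 ± 0.38 (adjusted p = 0.0118). RBCS1A was called in 13 lines and RBCS3B in 2, and the line estimates of RBCS3B ran from -1.10 in GABI_868_E02 to 4.29 in GABI_699B09. RBCS3B was not called by limma-voom (0.73, adjusted p = 0.0564), from run 2 alone (0.98, adjusted p = 0.0873) or without GABI_699B09 (0.79, adjusted p = 0.0602). Nor was it called without replicate 2 (0.82, adjusted p = 0.148) or replicate 4 (0.92, adjusted p = 0.186), or in the strips with both concentrations. RCA, which keeps Rubisco active, rose by 0.98 ± 0.07, and GAPA and GAPB, the subunits of the chloroplast glyceraldehyde-3-phosphate dehydrogenase, rose by 0.91 ± 0.09 and 0.73 ± 0.10. PRK, which makes the acceptor of carbon dioxide, had 90 counts in all libraries at 10 mM and 38 at 1 mM, too few for the test.

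**Figure D2:**
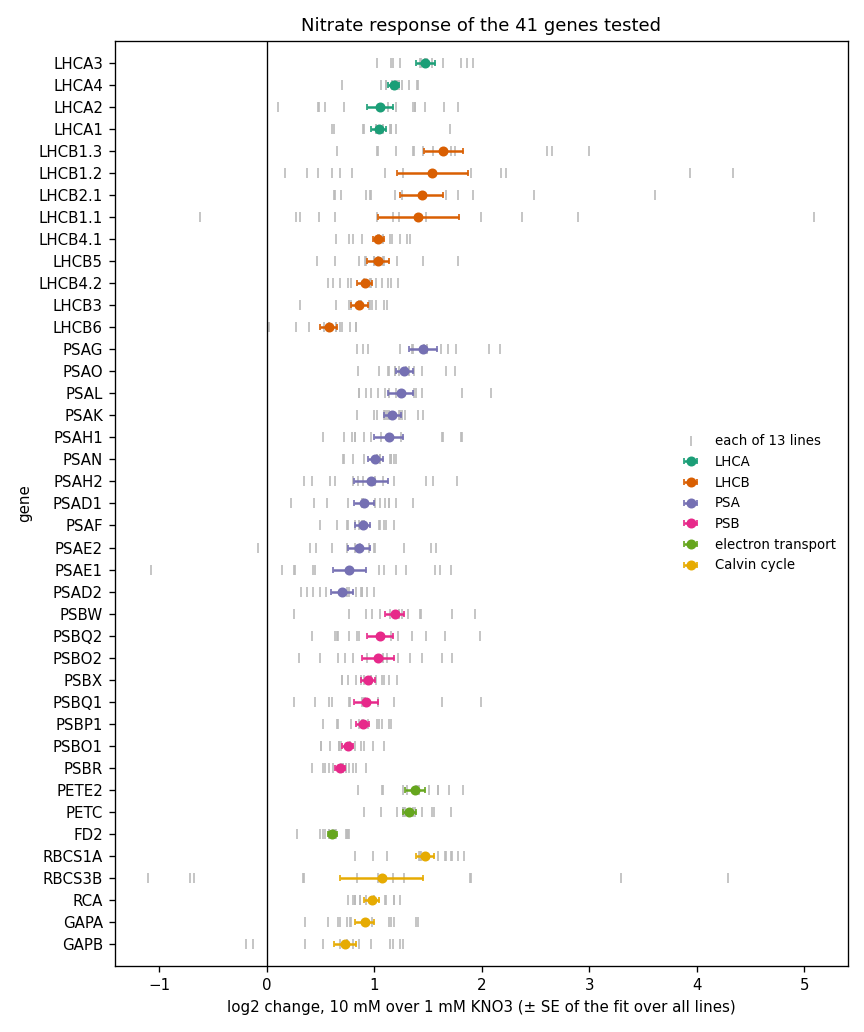
Log2 change from the fit (horizontal axis, 10 mM over 1 mM KNO3) for each of the 41 genes tested (vertical axis), with the estimate over all lines as a coloured point ± SE and each of the 13 lines as a grey tick. The points lie between 0.58 for LHCB6 and 1.64 for LHCB1.3, and the ticks spread most for LHCB1.1, LHCB1.2 and RBCS3B.

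The strips bear on these calls because most of them hold 1 concentration. With strip as a covariate 36 of the 41 genes were called higher. From the 24 libraries of the 3 strips with both concentrations, 33 of 42 genes tested were, with a median log2 change of 0.82. Over all genes these fits called 7563 and 6281 in either direction, against 12675 in the main fit. The shares called higher were not counted. The fit to the 3 strips had no strip term, and within a strip no line is at both concentrations. Its nitrate change thus compares a line's libraries across strips and cannot separate nitrate from strip. LHCB1.1, LHCB2.1, PSAE1, PSAH2 and PSBO2 were not called with strip as a covariate or in the mixed strips. LHCB1.2 (0.81, adjusted p = 0.340), LHCB6 (0.39, adjusted p = 0.0542) and RBCS3B (0.95, adjusted p = 0.276) were not called in the mixed strips. No gene was called lower in either.

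Taken one line at a time, between 11 and 37 of the 41 genes were called higher at 10 mM and none lower. In Col 29 were called, where 11.7% of all genes tested were called higher. SALK_015182 had 37 (background 8.84%), GABI_699B09 33 (7.67%), SAIL_1207_H04 32 (9.93%), SALK_070847C 29 (6.21%) and SALK_085964C 28 (7.25%). SALK_100002 had 26 (9.03%), SALK_035980 25 (7.73%), GABI_513E07 24 (8.61%) and SALK_146141 22 (11%). The fewest were in SALK_094437C with 20 (8.06%), GABI_868_E02 with 16 (8.86%) and SALK_012253 with 11 (6.24%). LHCA3, LHCA4, LHCB4.1, PSAK, PSAN, PSAO, PSBX, PETC, RBCS1A and RCA were called in all 13 lines, and the share of all genes called in all lines was not counted. Without replicate 2 the count in Col was 17, and from run 1 alone it was also 17. Over all genes 4771 were called in Col in either direction, against 3690 and 2171 in those fits. The count of calls per line does not show that responses differed: in the test of the difference in nitrate response among the 13 lines, 0 of 41 genes were called, where 0.0102% of all genes were, and 1 of them, PSAE1, had an unadjusted p under 0.05. DESeq2 and limma-voom also called 0. The fitted response was smaller than that of Col for 39 of the 41 in SALK_012253 (median log2 difference -0.44) and for 34 in GABI_868_E02 (-0.45). It was larger for 30 in SALK_015182 (0.16). The genes share libraries, and these signs were not tested.

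The lines did differ in the level of these genes averaged over both concentrations. In the test of any difference among the 13 lines 30 of 41 genes were called, where 11% of all genes were. By group these were 4 of 4 LHCA genes, 5 of 9 LHCB, 9 of 12 PSA, 5 of 8 PSB, 3 of 3 of electron transport and 4 of 5 of the Calvin cycle. Without GABI_699B09 the count was 10, without replicate 2 it was 16 and from run 1 alone 18. Over all genes 2131 were called in this test, against 360, 1353 and 957 in those fits. Set against Col, 8 of the 12 insertion lines had no gene called. Of all genes tested, 0.178% were called in GABI_868_E02, 0.636% in SALK_012253, 0.229% in SALK_015182, 0.356% in SALK_035980, 0.270% in SALK_085964C, 0.122% in SALK_094437C, 0.0509% in SALK_100002 and 0.214% in SALK_146141. The other 4 were GABI_699B09, where genes were lower, and SALK_070847C, GABI_513E07 and SAIL_1207_H04, where they were higher. Each line was compared with the same 8 Col libraries, so the comparisons share them.

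**Figure D3:**
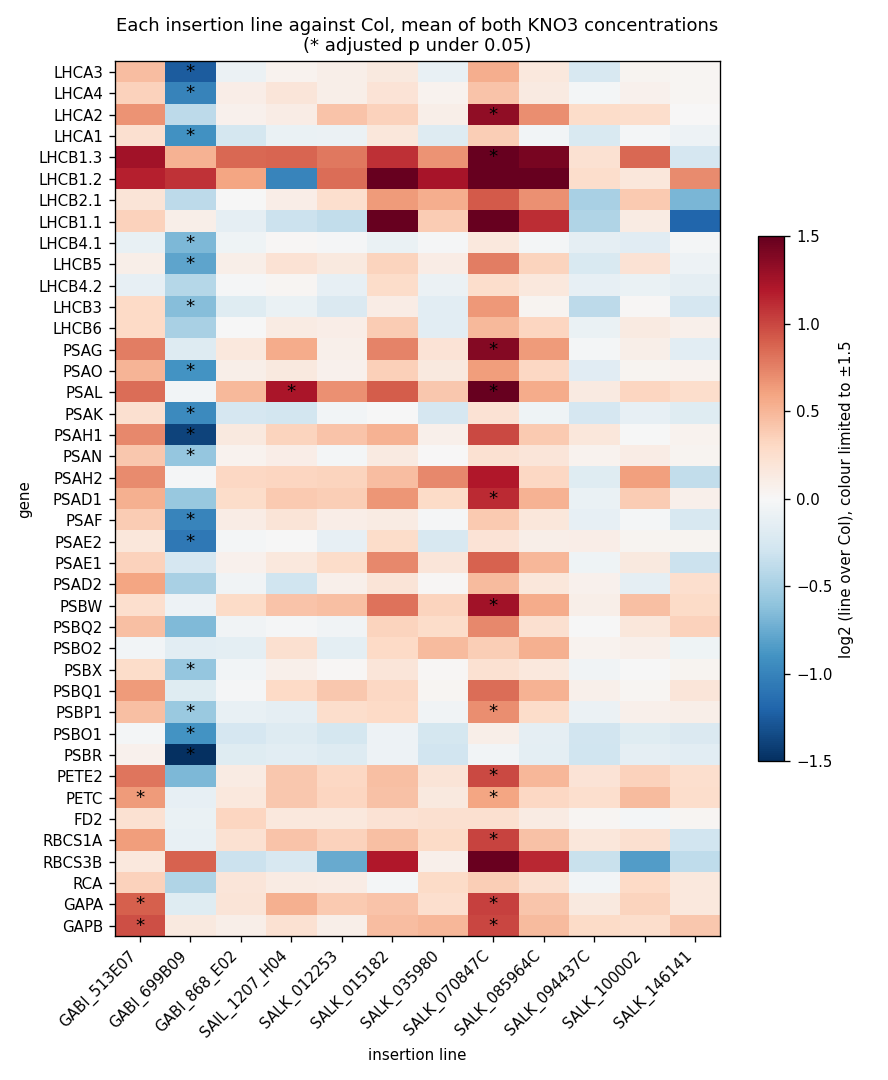
Log2 difference between each insertion line and Col (columns), averaged over 10 and 1 mM KNO3, for the 41 genes tested (rows), with colour limited to ±1.5 and a star where the adjusted p was under 0.05. GABI_699B09 carries 16 stars, all lower, and SALK_070847C 12, all higher.

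In GABI_699B09 16 genes were lower than in Col and none higher, where 7.06% of all genes were called lower and 4.56% higher. The fitted difference was negative for 36 of the 41, with a median of -0.48. The 16 were 3 of 4 LHCA genes, 3 of 9 LHCB, 6 of 12 PSA and 4 of 8 PSB, with none of the 3 electron transport genes and none of the 5 Calvin cycle genes, and whether these groups differ was not tested. Taken alone, the 10 mM libraries gave 7 genes lower, where 4.02% of all genes were, and the 1 mM libraries 10, where 4.25% were. The summed level at 10 mM was 375 to 573 CPM in GABI_699B09, against 665 to 875 CPM in Col, and at 1 mM 196 to 258 CPM against 367 to 403 CPM. At 1 mM no library of another line was as low as those of GABI_699B09, the lowest being at 309 CPM, and at 10 mM 45 of the 48 libraries of other lines exceeded its highest.

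PSBR showed the largest fall. At 10 mM it stood at 57.6, 74.7, 48.9 and 46.2 CPM in GABI_699B09, against 156, 178, 171 and 181 CPM in Col. At 1 mM the values were 44.5, 44.1, 35.3 and 32.5 CPM in GABI_699B09, against 119, 108, 93.6 and 90.9 CPM in Col. The groups did not overlap at either concentration, and the 10 mM libraries of GABI_699B09 lay below the 1 mM libraries of Col. The log2 difference was -1.49 ± 0.13 (SE, adjusted p = 1.61e-17).

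PSAH1, a subunit near the docking site of mobile LHCII on photosystem I, followed with a log2 difference of -1.38 ± 0.40 (adjusted p = 0.0111). Its levels were low and at 10 mM the groups overlapped, with 1.73, 0.724, 1.47 and 0.662 CPM in GABI_699B09, against 2.49, 2.45, 1.07 and 3.46 CPM in Col. LHCA3 fell by 1.24 on the log2 scale (SE 0.24, adjusted p = 3.97e-05). At 10 mM it was at 3.03, 7.31, 3.97 and 5.2 CPM in GABI_699B09, against 9.95, 12.7, 9.06 and 8.91 CPM in Col. Its 4 libraries of GABI_699B09 were below all 4 of Col at this concentration, and at 1 mM likewise, at 0.901 to 2.22 CPM against 2.70 to 6.06 CPM.

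The other 13 genes called had differences between -1.07 for PSAE2 and -0.56 for PSBP1. LHCA4, with a log2 difference of -1.0, was at 59.5, 76.5, 59.1 and 54.3 CPM at 10 mM in GABI_699B09, against 114, 151, 130 and 116 CPM in Col. PSBO1, the main PSBO gene, fell by 0.90 on the log2 scale, and at 10 mM was at 31.5, 35.8, 22.5 and 20.6 CPM in GABI_699B09, against 41.9, 70.2, 58.9 and 41.1 CPM in Col. Every library of GABI_699B09 lay below every library of Col at both concentrations for LHCA3, LHCA4, LHCB4.1, LHCB5, PSAF, PSAK, PSBO1 and PSBR. These belong to the 16 already called lower, which favours such separation, and the share over all genes was not counted. FD2 was at 71.6, 87.7, 72.6 and 78.6 CPM at 10 mM in GABI_699B09, against 83.4, 90.4, 57.3 and 71.8 CPM in Col, so its groups overlapped.

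The count of genes lower in GABI_699B09 was 20, 13, 12 and 10 when replicate 1, 2, 3 or 4 of every group was left out, and 19 with strip as a covariate. Over all genes 2285 were called in this line in either direction. That number was 1983, 1585, 1559 and 1653 without replicate 1, 2, 3 or 4, and 3080 with strip as a covariate. Of the 16 genes, 3 had a G-box, 3 an I-box and 4 a CCAATC element in the upstream window, against 4, 9 and 7 of the other 25 tested. The transcription factor gene GLK2 was called lower in the same line, by 1.63 on the log2 scale (SE 0.12, adjusted p = 3.52e-20). It was at 2.89, 5.57, 4.26 and 3.78 CPM at 10 mM in GABI_699B09, against 17.5, 13.8, 16 and 15.8 CPM in Col, and at 1 mM at 2.44, 3.80, 4.21 and 3.83 CPM against 8.56, 8.23, 9.08 and 11 CPM. The groups of GLK2 were thus apart at both concentrations. GLK2 was 1 of 3 genes called lower among 16 tested regulators of photosynthesis genes, and its part in the result was not tested. GLK1 had 100 counts in all libraries and was not tested.

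**Figure D4:**
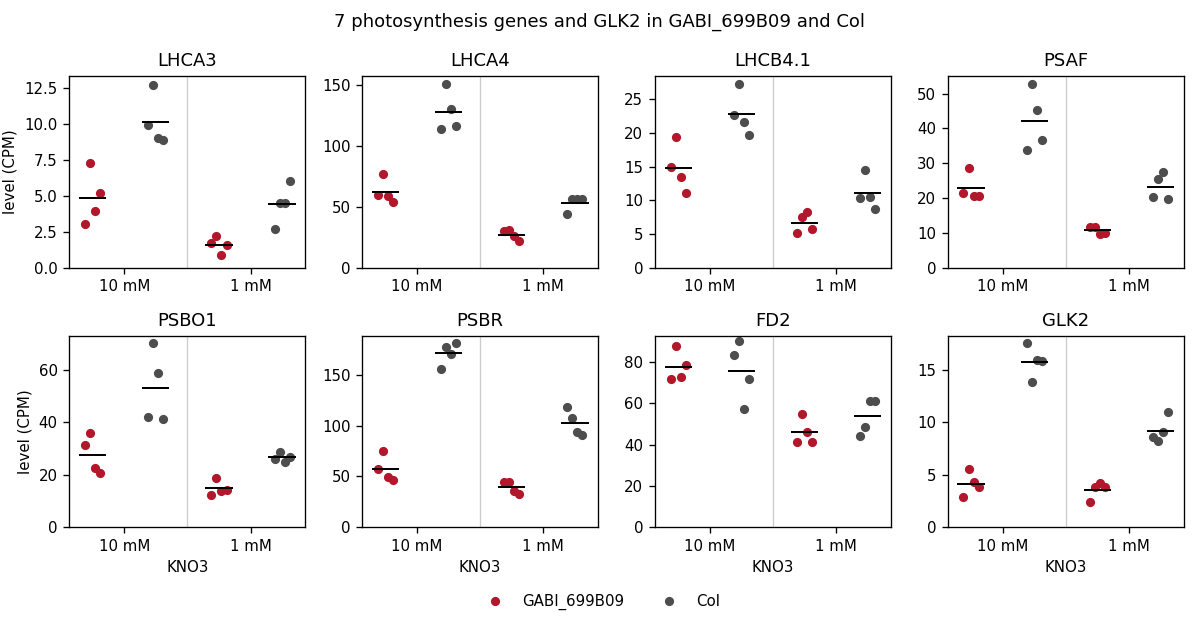
Level in CPM (vertical axes, from 0) of 7 photosynthesis genes and of GLK2 in GABI_699B09 (red) and Col (dark grey) at 10 mM and 1 mM KNO3 (horizontal axes), 4 libraries each, with a bar at the mean. The red points lie below the grey ones at both concentrations for LHCA3, LHCA4, LHCB4.1, PSAF, PSBO1, PSBR and GLK2, and overlap with them for FD2.

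Markers of seed storage and oil bodies also differed from Col in this line. Summed over 6 markers they were at 0 to 4.92 CPM at 10 mM in GABI_699B09, against 0 to 0.191 CPM in Col, and at 1 mM at 0.300 to 4.29 CPM against 0 to 0.300 CPM, with OLEO1 and OLEO2, the 2 tested, called higher. The median log2 difference of these 2 from Col was 5.25 here. It was 2.73 in SALK_070847C, 2.27 in GABI_513E07, 2.27 in SALK_035980 and -0.37 in SALK_015182 and SALK_094437C, with neither gene called in these lines. The part of the seed markers in the result was not tested.

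In SALK_070847C 12 genes were higher than in Col and none lower, where 0.351% of all genes were called higher. The fitted difference was positive for 40 of the 41, with a median of 0.70. Against the same Col libraries it was positive for 37 in GABI_513E07 (median 0.38), 36 in SALK_015182 (0.33) and 36 in SALK_085964C (0.32). In the remaining insertion lines apart from GABI_699B09 it was positive for 17 to 29. These signs were not tested. At 10 mM alone and at 1 mM alone edgeR called 0 of the 41, where 0.0153% and 0.112% of all genes were called higher. Of the 41, 23 at 10 mM and 16 at 1 mM had an unadjusted p under 0.05, all higher in SALK_070847C. The share of all genes at that unadjusted threshold was not counted, so these counts cannot be set beside the shares of adjusted calls. LHCB1.3 had the largest difference, 2.04 ± 0.45 (adjusted p = 0.00962). At 10 mM it was at 1.52, 13, 7.33 and 7.11 CPM in SALK_070847C, against 1.24, 6.50, 2.00 and 1.06 CPM in Col, and at 1 mM at 1.70, 3.37, 5.06 and 1.47 CPM against 0.300, 0.165, 0.613 and 0.731 CPM. The groups overlapped at 10 mM and did not at 1 mM. PSAL, a subunit of photosystem I near the place where LHCII docks, was higher by 1.52 ± 0.29 (adjusted p = 0.00125). At 10 mM it was at 8.10, 26.5, 9.48 and 25.3 CPM in SALK_070847C, against 3.16, 10.297, 7.99 and 4.52 CPM in Col. PSAG was higher by 1.37 ± 0.31 (adjusted p = 0.0117), at 5.31, 17.4, 9.1 and 13.7 CPM at 10 mM in SALK_070847C, against 2.11, 9.03, 4.93 and 3.59 CPM in Col.

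Genes of carbon fixation and electron transport were among those called in SALK_070847C: GAPA, GAPB, RBCS1A, PETE2 and PETC, with log2 differences between 0.60 and 1.03. The remaining 4 were LHCA2, PSBW, PSAD1 and PSBP1. PSBP1 was the only gene called in both lines, higher here by 0.70 and lower in GABI_699B09 by 0.56. The number called in SALK_070847C was 10, 0, 6 and 8 when replicate 1, 2, 3 or 4 of every group was left out, so none was called without replicate 2, and it was 6 from run 1 and 8 from run 2 alone. Over all genes 119 were called in this line in either direction. That number was 74, 13, 32 and 71 without replicate 1, 2, 3 or 4, and 18 and 46 from run 1 and run 2 alone. Replicate 2 at 10 mM was the highest of all libraries for LHCA4 at 198 CPM, for PSAF at 81.8 CPM and for RBCS1A at 43.0 CPM.

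GABI_513E07 had 3 genes higher than Col, where 0.676% of all genes were: GAPB with a log2 difference of 0.96, GAPA with 0.90 and PETC with 0.63. With replicate 1, 2, 3 or 4 left out, 1, 1, 0 and 0 were called. Over all genes 303 were called in this line in either direction, against 223, 140, 135 and 150 in those fits. In SAIL_1207_H04 PSAL alone was higher, by 1.22 (adjusted p = 0.0477), where 0.0865% of all genes were called higher, and it was not called when any replicate was left out.

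The genes also differed in how much they varied between libraries of 1 group. The median coefficient of variation within groups was under 20% for 8 of the 46 genes, lowest for FD2 at 13.2%, LHCA4 at 15.5% and PSBR at 15.9%, and its median over the 46 was 32.8%. This coefficient includes counting error, which is larger at low levels, and that part was not separated. FD2, LHCA4 and PSBR had mean levels of 71.5, 94.6 and 119 CPM. LHCB1.1, LHCB1.2 and RBCS3B, which in leaves are counted among the abundant transcripts, were low in most root libraries and high in a few. Their median coefficients of variation were 113%, 99.2% and 99.9%, at mean levels of 1.09, 0.754 and 0.554 CPM. RBCS3B reached 9.01 CPM in 10 mM replicate 1 of SALK_015182, against a median of 0.327 CPM at 10 mM, and the same library was the highest for LHCB1.1 at 13.9 CPM, LHCB1.2 at 9.01 CPM and LHCB2.1 at 4.12 CPM. With group means removed, the median correlation of log2 CPM over all libraries was 0.65 among LHCB1.1, LHCB1.2, LHCB1.3, LHCB2.1 and RBCS3B, 0.42 among the other 36 genes tested and 0.24 between both sets. The libraries share their depth and composition, so these values are descriptions. The gene most like LHCB1.2 was LHCB1.1 (r = 0.85), and that most like LHCA4 was PSAF (r = 0.80).

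The 8 genes of LHCB1, LHCB2 and the RBCS cluster on chromosome 5, summed, were at 1.53 CPM in the lowest library, 5.99 CPM in the median and 48.9 CPM in the highest at 10 mM, against 0.487, 2.23 and 16.7 CPM at 1 mM. The 4 highest libraries were SALK_015182 replicate 1, GABI_699B09 replicates 1 and 2 and SALK_070847C replicate 2, all at 10 mM. At 10 mM, 2 libraries of GABI_699B09 were thus among the highest for these copies, while the 4 libraries of this line were the lowest of 52 for the other 38 genes. Reads of near-identical copies can be split by the counting. Of the 46 genes, LHCB1.2 and LHCB2.2 shared 50-base words with another transcript in the last 300 bases, 6.37% and 17.9% of their words.

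**Figure D5:**
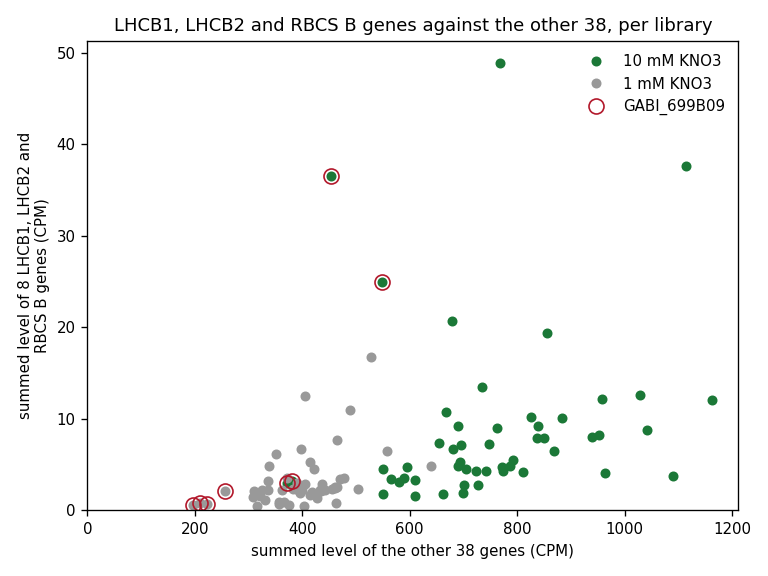
Summed level of 8 genes (LHCB1.1 to LHCB1.3, LHCB2.1, LHCB2.2, RBCS1B, RBCS2B and RBCS3B; vertical axis, CPM) against that of the other 38 genes (horizontal axis, CPM) in each library, green for 10 mM and grey for 1 mM KNO3, with GABI_699B09 ringed in red. Most libraries lie low on the vertical axis, and the ringed libraries are furthest left at each concentration while 2 of them are among the 4 highest.

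The tissue label was checked with genes of other tissues. Of 20 shoot markers outside photosynthesis, 4 could be tested: PDF1, CER1, CER6 and ATML1, genes of the epidermis and its wax, and all 4 were lower at 10 mM, with log2 changes between -0.62 and -0.23. CER1 and CER6 were not called with strip as a covariate (adjusted p = 0.206 and 0.221) or in the mixed strips (adjusted p = 0.566 and 0.303). Without these 4 the summed level of the shoot markers was 0.298 to 1.91 CPM at 10 mM (median 1.2), against 0.439 to 2.61 CPM at 1 mM (median 1.27), and YAB1 and MUTE, markers of leaf primordia and of the stomatal lineage, had 0 counts in all libraries. The ranges of these sums overlapped, the mean was higher at 10 mM in 4 of 13 lines, and their part in the results was not tested. The 10 root markers, all tested, summed to between 2279 and 5750.4 CPM at 10 mM, against 2314 to 4266 CPM at 1 mM, and 7 of them were called higher and 3 lower.

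Other genes of the same pathways were compared by lists. The counts for each list stand beside the 34.1% of all genes called higher at 10 mM over all lines and the 30.4% called lower. Of 19 genes of chlorophyll synthesis, 17 were tested and 10 rose and 2 fell, with a median of 0.40. CRD1 and CHLM, which act in the magnesium branch, rose by 1.36 ± 0.07 and 1.19 ± 0.05, and CHLI2, a subunit of the chelatase that inserts magnesium, by 1.18 ± 0.14. Of the light reaction genes outside the 46, 16 of 19 tested rose and 2 fell, led by ATPC1 (1.63 ± 0.09), the gamma subunit of the chloroplast ATP synthase, with LHCB1.4 at 1.58 ± 0.41 and PSBTN at 1.45 ± 0.12. LHCB1.4 was not called with strip as a covariate, with the mixed strips alone or without replicate 2. Of other Calvin cycle genes 8 of 10 rose and 2 fell, with CP12-2 at 1.77 ± 0.09, CP12-1 at 1.75 ± 0.06, both small proteins that bind PRK and GAPDH, and CFBP1, the chloroplast fructose bisphosphatase, at 1.47 ± 0.18. CP12-1 was at 195 ± 38.1 CPM at 10 mM, against 58.2 ± 16.3 CPM at 1 mM (SD, n = 52 each).

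Photorespiration moved less as a list, with 7 of 13 genes tested higher and 3 lower and a median of 0.11, but it held the largest single change: AGT1, a peroxisomal aminotransferase, was at 30.1 ± 8.52 CPM at 10 mM, against 4.16 ± 1.27 CPM at 1 mM (SD, n = 52 each), a log2 change of 2.85 ± 0.07 (adjusted p = 7.37e-57). GLYK rose by 1.53 ± 0.05 and HPR1 by 0.90 ± 0.10. Of regulators of photosynthesis genes, 10 of 16 tested rose and 3 fell, with SIG6, a sigma factor of the plastid polymerase, at 0.79 ± 0.07, GLK2 at 0.66 ± 0.05 and BBX21 at 0.58 ± 0.05. HPR1 and BBX21 were not called in the mixed strips alone. Of 10 genes of plastid import and division, 6 rose and none fell, with a median of 0.13 and TOC33, a receptor of the import complex, at 0.78 ± 0.05, TOC159 at 0.33 ± 0.04 and TIC40 at 0.31 ± 0.04. TIC40 was not called with strip as a covariate (0.18, adjusted p = 0.0810) or in the mixed strips alone (0.17, adjusted p = 0.185).

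Genes of proteins typical of colourless root plastids were lower at 10 mM. Of 10 listed, 9 fell and none rose, with a median of -0.44. RFNR2, a root ferredoxin-NADP reductase, was at 180 ± 28.4 CPM at 10 mM, against 333 ± 43.8 CPM at 1 mM (SD, n = 52 each), a log2 change of -0.89 ± 0.04. G6PD3, a plastid glucose-6-phosphate dehydrogenase, changed by -0.72 ± 0.04 and NTT1, an ATP carrier of the plastid envelope, by -0.71 ± 0.04. Of 3 genes known to be induced by strong light, ELIP1 and ELIP2 fell by 0.76 and 0.77 on the log2 scale, and CHS had a change of -0.18 (adjusted p = 0.128).

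In GABI_699B09 against Col, where 7.06% of all genes tested were called lower and 4.56% higher, 5 of 17 genes of chlorophyll synthesis, 3 of 16 regulators, 2 of 19 other light reaction genes, 4 of 10 other Calvin cycle genes and 3 of 13 of photorespiration were called lower and none of these lists had a gene called higher. CFBP1 changed by -3.58 ± 0.47 and LHCB1.5 by -1.96 ± 0.25. Of the import genes TOC75, the channel of the outer envelope, changed by -2.63 ± 0.12 and TOC33 by 0.83 ± 0.12. In SALK_070847C 2 of 19 other light reaction genes were called higher, where 0.351% of all genes were. None of chlorophyll synthesis, the regulators, the other Calvin cycle genes or photorespiration was called. GABI_513E07 had 3 of the 19 other light reaction genes called higher, where 0.676% of all genes were.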

How the data were processed

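Per the labels, root RNA was made into 3′ tag libraries by the BRAD-seq DGE protocol. The authors deposited whole-number read counts per gene, 1 file per library and run. The submitters' processing notes name the build TAIR10 and the tools Bowtie, HTSeq, SAMtools, limma and FastQC. Versions, roles and strand setting are not given in the sources used here, so overlapping and antisense genes and near-identical copies are uncertain. Both runs of a library were summed. Loci of the organelle genomes, 279 in number, are all at 0 in run 2 and were left out. Between 156 pairs of libraries of the same group, counts differed by more than counting error (chi-square per degree of freedom at least 4.48), so none was counted as a copy. The files give no molecular identifiers, and tags are therefore not independent molecules. The labels give separate plates for replicates, and p-values measure the spread between these libraries.

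In R 4.3.3 with edgeR 4.0.16, genes passed filterByExpr by group (minimum count 10), and a quasi-likelihood model with 1 coefficient for each of 26 groups was fitted with TMM factors. Alternatives used DESeq2 1.42.0, limma 3.58.1 (voom), other scaling, no filter, single runs, strip or replicate number as covariates, copies summed and libraries left out. The steps were tested on simulated data. CPM values use TMM factors, and correlations used log2 CPM with 0.5 added. The members and lists were chosen with earlier results of these data known. All 46 genes could be named. Full values are given for the 2 largest changes with nitrate and the highest level in each group of genes, for the 3 largest changes per line, and the 3 largest with nitrate in each other list. Others were named after their values were seen. Gene positions and upstream bases are RefSeq's of TAIR10.1, and no protein sequence was used.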

Additional observations from a re-analysis of the deposited data

Results flagged for a closer look

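Summed levels were checked for libraries far from the other 3 of their group, over 182 groups of 4 libraries (26 groups of samples and 7 sums of genes). The gap to the nearest library exceeded Dixon's 95% critical share of the range in 14, and chance gives about 1 in 20. For all 46 genes, 1 mM replicate 4 of SALK_100002 was lowest at 332 CPM. For the LHCA genes 1 mM replicate 1 of Col was lowest at 54.4 CPM. For the LHCB genes 10 mM replicate 2 of SALK_012253 was lowest at 43.8 CPM and 1 mM replicate 4 of SAIL_1207_H04 at 24.8 CPM. For the PSA genes 10 mM replicate 1 of SALK_100002 was lowest at 80.5 CPM, and for the PSB genes 10 mM replicate 3 of GABI_868_E02 was highest at 272 CPM. For electron transport the libraries were 10 mM replicate 1 of GABI_513E07 (lowest, 107 CPM), 10 mM replicate 1 of SALK_100002 (lowest, 94.3 CPM), 10 mM replicate 2 of GABI_699B09 (highest, 108 CPM) and 1 mM replicate 3 of GABI_513E07 (highest, 83.4 CPM). For the Calvin cycle they were 10 mM replicate 1 of GABI_513E07 (lowest, 34.2 CPM), of SAIL_1207_H04 (lowest, 20.5 CPM) and of SALK_035980 (lowest, 32.9 CPM), and 1 mM replicate 2 of GABI_699B09 (highest, 14.9 CPM).

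Organelle loci, outside the nuclear genes tested, held 1741114 counts in run 1 over all libraries and 0 in run 2, and were not analysed here.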

How the results depend on the processing

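The count of genes called higher at 10 mM over all lines was 41 and lay between 33 and 44 under the alternatives, and their median log2 change of 1.04 between 0.82 and 1.08, with 40 to 41 and 0.92 to 1.08 when a replicate of every group was left out. PSBO2 reversed to -0.022 with strip as a covariate, and the cause was not tested. Over all genes, 12675 were called in that comparison, against 7563 with strip as a covariate and 6281 in the mixed strips. In Col 29 genes were called, 17 from run 1 alone and 17 to 27 without a replicate. The calls within lines summed to 332, to 208 from run 1 alone and to 224 to 339 without a replicate. The calls against Col summed to 32, to 21 from run 2 alone, to 14 without GABI_699B09 and to 14 to 31 without a replicate. Among lines 30 genes were called, 18 from run 1 alone, 10 without GABI_699B09 and 16 to 30 without a replicate. Over all genes the numbers were 2131, 957, 360 and 1353 to 1833. Single runs and fewer replicates have fewer counts or libraries, and the causes were not tested further. With the replicate number as a block the counts were 41, 29, 347, 35, 31 and 0, the last for the nitrate response among lines, and the median was 1.03. Same-numbered libraries at 10 mM and 1 mM did not deviate together (52 pairs, r between -0.26 and 0.17, median -0.03), so the numbers were not read as a pairing. The summed level at 10 mM was 1.90 times that at 1 mM and between 1.86 and 1.87 times from single runs or without TMM factors. Exchanging the 2 libraries with disagreeing names left the count over all lines at 41. Depth limits the 5 genes not tested, which had between 18 and 447 counts in all.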
